A study of Mus musculus with 39 samples.

Results

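A set of 9 genes that encode myeloid transcription factors was followed across all 8 groups of the study: Spi1, Cebpa, Cebpb, Irf4, Irf5, Irf8, Klf2, Klf4 and Maf. They were taken by symbol from the deposited count table, and 9 of 9 were matched among its 43430 gene rows. All 9 passed the filter on low counts in every fit, so none is missing from a count below. RNA of sorted lung cells of C57BL/6J mice was sequenced, and the 39 libraries fall into 8 groups. The 4 monocyte groups hold lung monocytes of naive mice: young saline, young ISRIB, old saline and old ISRIB, with 5 libraries each. The 4 macrophage groups hold alveolar macrophages with low Siglec F, a class described in the series text as derived from monocytes, taken after bleomycin, an agent that damages lung tissue and is followed by scarring. The same age and treatment groups were used, with 5 libraries each and 4 in young ISRIB macrophages. ISRIB is a compound that counters the integrated stress response, by which stressed cells lower their protein synthesis; saline is its control. The labels give an age of 8 to 12 weeks for young and over 18 months for old mice, and the series text gives 3 to 5 and 18 to 24 months. By that text ISRIB was injected every day from day 7 and the cells were taken on day 21 after bleomycin. These days hold for the macrophage groups, and no such day is recorded for the naive monocyte groups. Every macrophage library came from a bleomycin mouse and every monocyte library from a naive one, so cell type and injury cannot be told apart in this design.

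PU.1, the product of Spi1, is the factor that opens the myeloid enhancers on which the others act, and macrophages depend on its level being kept high. C/EBPα and C/EBPβ, the products of Cebpa and Cebpb, work with PU.1 in granulocyte, monocyte and macrophage genes, and C/EBPβ is needed for the survival of nonclassical monocytes. IRF8 directs progenitors into the monocyte line, IRF5 drives inflammatory cytokine genes below Toll-like receptors, and IRF4 serves alternative activation and some dendritic cells. KLF2 and KLF4 keep monocytes and endothelium quiet, with KLF4 also needed for monocyte differentiation, and c-MAF (Maf) belongs to the self-renewal and resident macrophage programme.

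Sequence is shown for the 3 genes that frame the result: Klf2, which had the largest difference between the cell types, Cebpa, the one gene that was higher in macrophages, and Irf8, whose promoter responds to interferon. Each line holds the 250 bases before the transcription start, 5′ to 3′, from RefSeq on GRCm38.p6. Capitals mark matches to 3 short motifs searched on both strands: TATAAA (the TATA box), a MEF2-type site (CTA and TAG with 4 free letters between them) and TTCNNNGAA (a gamma-interferon-activated, or GAS, site).
Klf2: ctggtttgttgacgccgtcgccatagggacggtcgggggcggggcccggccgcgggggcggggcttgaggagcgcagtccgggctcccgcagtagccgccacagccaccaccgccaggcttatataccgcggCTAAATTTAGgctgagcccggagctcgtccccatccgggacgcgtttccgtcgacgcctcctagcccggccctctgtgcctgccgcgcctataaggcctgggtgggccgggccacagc
Irf8: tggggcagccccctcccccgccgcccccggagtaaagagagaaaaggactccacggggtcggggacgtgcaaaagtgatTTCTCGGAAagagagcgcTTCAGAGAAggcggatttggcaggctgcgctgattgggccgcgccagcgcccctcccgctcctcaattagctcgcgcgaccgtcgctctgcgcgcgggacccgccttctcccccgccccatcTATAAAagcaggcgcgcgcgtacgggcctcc
Cebpa: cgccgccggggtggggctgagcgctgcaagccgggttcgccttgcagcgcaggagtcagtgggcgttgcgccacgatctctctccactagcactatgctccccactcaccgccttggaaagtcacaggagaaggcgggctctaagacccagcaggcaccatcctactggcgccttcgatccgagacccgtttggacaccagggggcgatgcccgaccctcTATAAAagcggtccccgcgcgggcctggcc
The Klf2 stretch is chr8:72318812-72319061, the Irf8 stretch chr8:120736108-120736357, the upstream of its 2 listed starts, and the Cebpa stretch chr7:35119043-35119292, all on the plus strand. The MEF2-type match in Klf2 begins 118 bases before the start, and such a match was found in 3.20% of the 32851 RefSeq promoters of this length. Irf8 had 2 GAS matches, at 171 and 153 bases before the start, against a share of 7.02% of promoters with any. A TATA box stood 30 bases before the start of Cebpa, 31 before that of Irf8 and 26 before that of Irf4, against 12.4% of promoters with a match at any place. Promoters were at hand for 7 of the 9 genes, without Spi1 and Maf. A match is a string of letters, not a shown binding site.

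The libraries held between 4595331 and 16056708 counts, and the median was 8628240. Levels below are CPM, the counts of a gene relative to its library total, with totals scaled by TMM (a normalisation that evens out composition) over all 39 libraries. Most defining genes went with the cell type labels. Ly6c2, a surface antigen of classical monocytes, was at 266 to 654 CPM in monocyte libraries and at most 7.58 CPM in macrophage libraries. Mertk, a receptor for the uptake of dying cells, ran from 331 to 621 CPM in macrophages and was at most 7.11 CPM in monocytes. Siglecf was at 47.2 to 156 CPM in macrophages and at most 1.56 CPM in monocytes. Of 10 classical monocyte markers, 8 were lower and 2 higher in macrophages. The higher ones were Chil3, a chitinase-like protein, and Fn1, fibronectin, which are abundant, so that the sum of the list ran from 10759 to 25522 CPM in monocytes and from 13072 to 25595 CPM in macrophages. Some libraries stood apart. The young saline monocyte library of replicate 5 was the lowest of its group for Spi1, Cebpb, Irf4, Irf5, Irf8, Klf2, Klf4 and Maf, and it had the lowest summed level of 12 nonclassical monocyte markers, 3360 CPM against 6377 to 8249 CPM in the other 4. Replicate 4 of the same group was the shallowest library of the series. In macrophages, 17 immediate early genes, which respond within minutes to stimulation or cell handling, summed to 2901 CPM in replicate 3 of young ISRIB. They summed to 8081 CPM in replicate 2 of that group, and to 7873 and 8090 CPM in the old saline replicates 3 and 5. In monocytes, replicate 5 of old ISRIB had a low immediate early sum, 10701 CPM against a median of 20122, and replicates 2 and 3 of old saline had low nonclassical sums, 3500 and 4563 CPM against a median of 6906. These libraries were kept, and the counts were repeated without those of an outlying sum. No label says that replicates came from separate mice, so the p-values measure the spread between these libraries.

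Compared per kilobase of exon, Cebpb was the most abundant of the 9 transcripts in both cell types, at 615 CPM per kb in monocytes and 393 in macrophages. Klf2 was the second in monocytes, at 371 CPM per kb, and the seventh in macrophages, at 16.5. Cebpa moved the other way, from the sixth place at 118 CPM per kb to the second at 219. Spi1 was the third in both, at 197 and 157 CPM per kb. Irf4 was the lowest in both, at 9.38 and 3.38 CPM per kb, and Maf stood just above it at 12.6 and 4.33. A bulk level does not tell fewer cells of a kind from less RNA per cell.

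Averaged over the 4 matched pairs of groups, all 9 genes differed between macrophages and monocytes, 8 of them lower in macrophages and 1 higher. This comparison separated 79.2% of the 13587 genes tested, 39.9% higher and 39.2% lower, so that passing it is the common case, and the spread of sizes among the 9 is what the data add. The median log2 change of the 9 was -0.97, and that of all genes was 0. A gene was called where the edgeR quasi-likelihood test gave a Benjamini-Hochberg adjusted p under 0.05 over all genes tested. In young saline mice alone 8 of 9 were called, where 60.0% of all genes were, and in old saline mice 8 of 9, where 57.0% were. Libraries of the 2 cell types did not overlap for 5 of the genes in young saline mice (40.0% of all genes) and for 7 in old saline mice (43.1%). The summed immediate early level was 10701 to 24835 CPM in monocytes and 2901 to 8090 CPM in macrophages, so this handling-sensitive group differed in the same direction as the 8 genes, and its part in them was not tested.

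**Figure D1:**
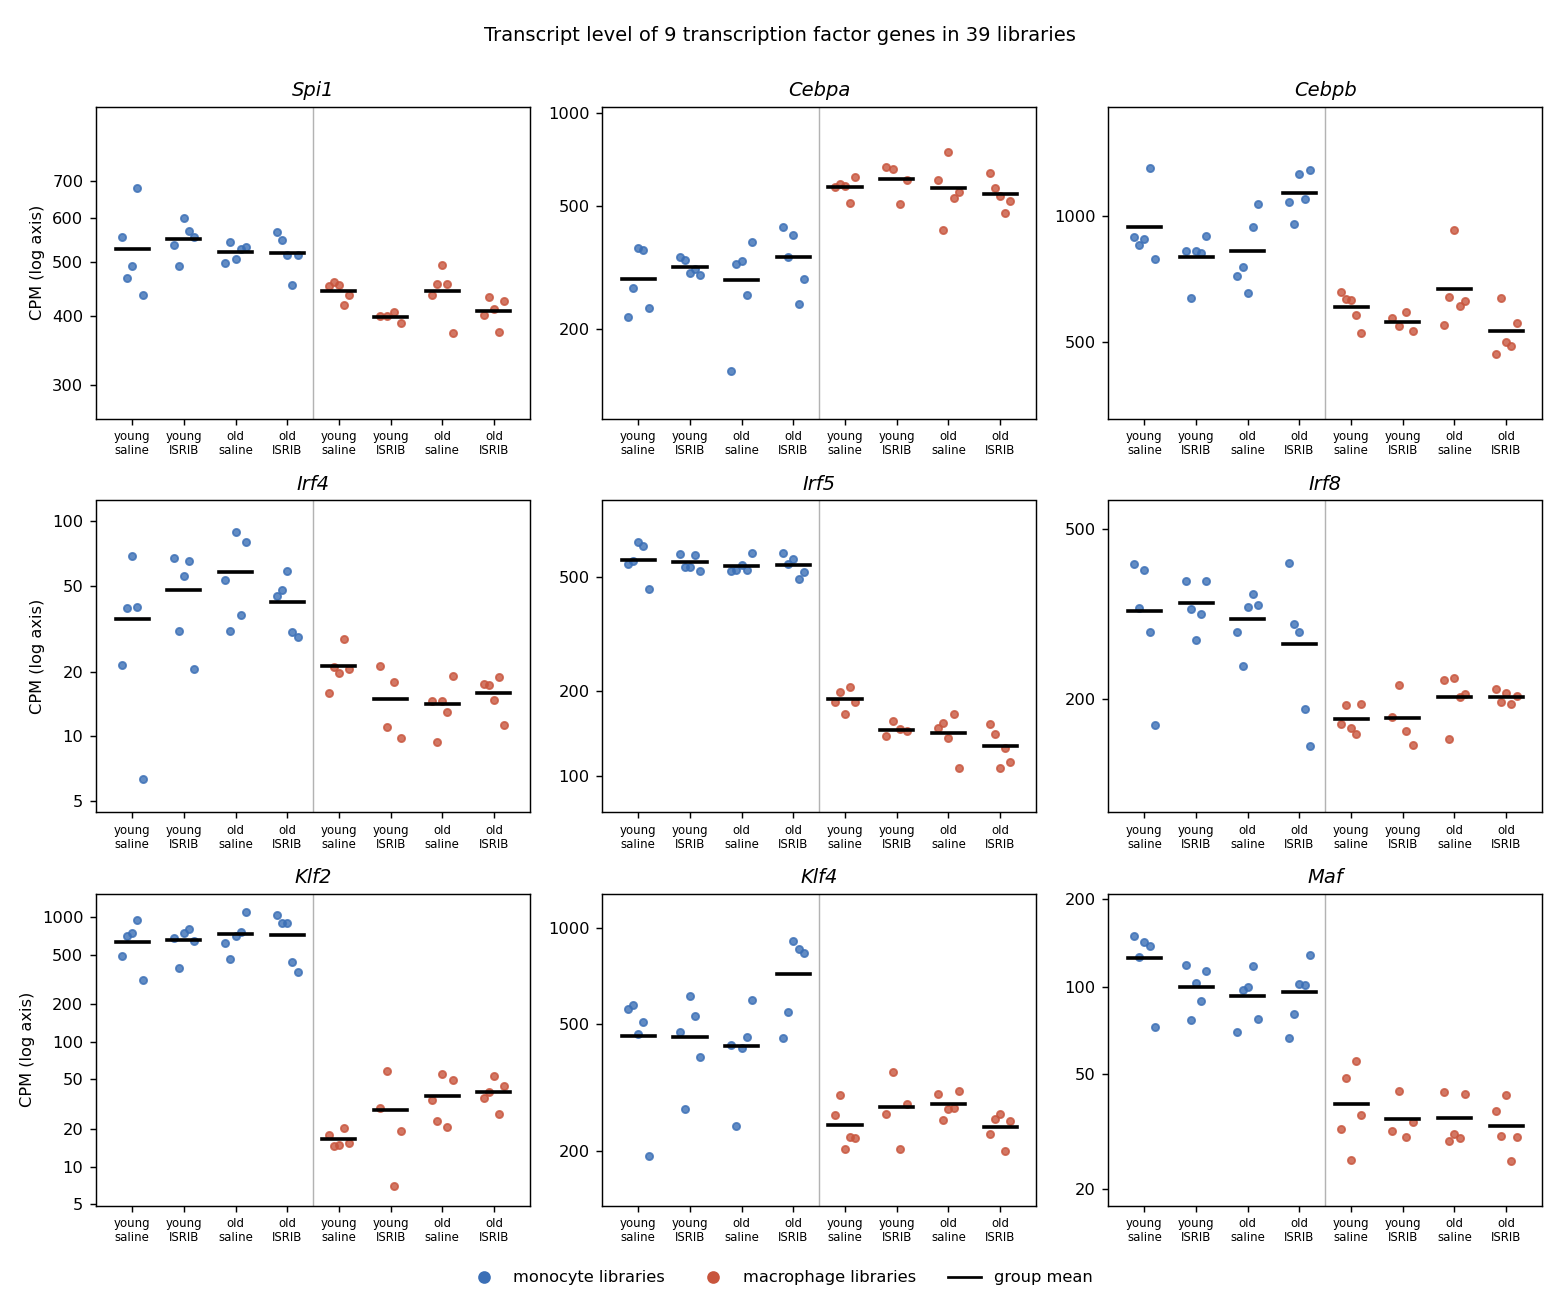
Level of each of the 9 genes (CPM on a log axis) in every library of the 8 groups, monocytes in blue and macrophages in red, with the group mean as a black bar. Klf2, Irf5 and Maf separate the cell types with no library between them, Cebpa is higher in every macrophage group mean (548 to 611 CPM) than in any monocyte group mean (289 to 341 CPM), and Spi1 has the smallest change.

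Among the lineage factors, Spi1 (chr2:91082390-91115756, GRCm38, 7 exon blocks) stayed close to its monocyte level. Young saline monocytes had 556, 469, 493, 680 and 437 CPM, and young saline macrophages 452, 460, 454, 419 and 437 CPM. The groups overlapped through monocyte replicate 5 alone, and the high monocyte library is the shallow one. Over the 4 pairs Spi1 was 1.25-fold lower in macrophages (log2 change -0.32 ± 0.05, SE; edgeR adjusted p = 3.15e-08), and it had the smallest change of the 9. In young saline mice its call (log2 change -0.25 ± 0.09, adjusted p = 0.0165 by edgeR) was lost without young saline monocyte replicate 4 (-0.13, adjusted p = 0.138), and with no filter on low counts (adjusted p = 0.0509). In old saline mice it was lost without old saline macrophage replicate 5 (-0.18, adjusted p = 0.0951, edgeR) with the outlying immediate early libraries left out (-0.21, adjusted p = 0.0872), and with no filter on low counts (-0.24, adjusted p = 0.0689). The other 2 genes of the SPI branch of the ETS family were also lower: Spic, the factor of iron-recycling macrophages, by a log2 change of -2.66 ± 0.39, and Spib, a B cell and plasmacytoid dendritic cell factor that did not exceed 5.01 CPM in any library, by -1.08 ± 0.38.

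Cebpa (chr7:35119293-35121928, a single exon) was the one gene that rose. Its young saline monocyte libraries held 219, 271, 367, 361 and 235 CPM and the young saline macrophage libraries 574, 589, 578, 510 and 622 CPM. In old saline mice the values were 147, 326, 331, 258 and 382 CPM in monocytes and 608, 419, 745, 529 and 554 CPM in macrophages. Within the saline groups no macrophage library fell into the monocyte range at either age. Among all libraries, old saline macrophage replicate 2, at 419 CPM, lay below old ISRIB monocyte replicate 1, at 429 CPM. The rise was 1.86-fold over the 4 pairs (log2 change 0.90 ± 0.09, edgeR adjusted p = 4.46e-12) and 1.98-fold at each age in saline mice. Cebpb (chr2:167688915-167690418, a single exon) went down, 1.56-fold over the 4 pairs (log2 change -0.64 ± 0.07, edgeR adjusted p = 6.24e-11). Its level was 787 to 1297 CPM in young saline monocytes and 526 to 657 CPM in young saline macrophages, without overlap. In old saline mice monocytes held 718, 754, 654, 938 and 1067 CPM and macrophages 550, 641, 926, 609 and 626 CPM. These groups overlapped through macrophage replicate 3 alone, and the change of -0.30 ± 0.13 did not pass (edgeR adjusted p = 0.0527). It passed without macrophage replicate 3 (-0.44, adjusted p = 0.00417) or without monocyte replicate 1, 2 or 3 (-0.33 to -0.37). It also passed under limma voom (adjusted p = 0.0425), under a replicate block, which treats equal replicate numbers as pairs (adjusted p = 0.0387), and with either set of outlying libraries left out (-0.46 in both). Cebpb shares 312 exon bases with Tmem189 on the other strand, and Tmem189 itself was higher in macrophages (log2 change 0.97 ± 0.06). Whether reads were counted by strand is not given in the sources used here, so reads in the shared bases cannot be assigned to one of them. Of the other C/EBP genes, Cebpe, a factor of late granulocytes, and Cebpd, an acute-phase factor, were lower, with log2 changes of -3.52 ± 0.56 and -0.98 ± 0.08. In all, of 6 family genes tested, 1 was higher, 3 were lower and 2 did not pass, where 39.9% of all genes were higher and 39.2% lower.

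All 3 interferon regulatory factors were lower in macrophages. The summed level of 12 dendritic cell markers was lower as well, at 128 to 368 CPM in monocytes and 64.4 to 131 CPM in macrophages, each marker with counts in both, and its part in Irf4 and Irf8 was not tested. Irf5 (chr6:29526625-29541871) separated the cell types: monocytes held 455 to 664 CPM (median 553) over 20 libraries and macrophages 107 to 206 CPM (median 148) over 19. The gap between the cell types was wider than the spread within either. Irf5 was 3.76-fold lower over the 4 pairs (log2 change -1.91 ± 0.06, edgeR adjusted p = 4.86e-29). It shares 411 exon bases with Tnpo3, an importin gene on the other strand, whose own log2 change was -0.33 ± 0.04. Irf8 (chr8:120736358-120756694) was 1.6-fold lower (-0.68 ± 0.09, edgeR adjusted p = 1.11e-08), with young saline values of 414, 327, 402, 287 and 174 CPM in monocytes and 175, 194, 172, 166 and 195 CPM in macrophages. The overlap came from monocyte replicate 5 alone. Old ISRIB monocytes had the same kind of spread, with 416, 300, 287, 190 and 156 CPM. Irf4 (chr13:30749226-30766976) was sparse and the most variable of the 9 in monocytes, where its libraries ran from 6.35 to 89.4 CPM against 9.42 to 28.5 CPM in macrophages. It was 2.75-fold lower over the 4 pairs (-1.46 ± 0.19, edgeR adjusted p = 4.14e-09). In young saline mice the change of -0.73 ± 0.36 did not pass (edgeR adjusted p = 0.0753), and it did without monocyte replicate 5, the 6.35 CPM library (-1, adjusted p = 0.00638), or without monocyte replicate 1 (-0.87, adjusted p = 0.0434). In old saline mice it was -2.03 ± 0.37 (edgeR adjusted p = 1.03e-05). Of 8 IRF genes tested 7 were lower and none was higher, where 39.2% of all genes were lower, and Irf3 did not pass, at -0.12 ± 0.06 (edgeR adjusted p = 0.061). Irf7, the amplifier of type I interferon, had the largest change, -3.50 ± 0.17, followed by Irf1, the interferon-γ responder, at -2.34 ± 0.15. Irf5 came next, at the -1.91 given above, and then Irf9, a subunit of the interferon-stimulated complex, at -1.76 ± 0.08.

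Klf2 (chr8:72319033-72321656, 3 exon blocks) had the largest change of the 9. Young saline monocytes held 485, 705, 739, 946 and 312 CPM and young saline macrophages 18, 14.7, 15, 20.3 and 15.5 CPM. In old saline mice the values were 616, 463, 702, 759 and 1094 CPM in monocytes and 34.3, 23, 55.6, 20.6 and 49.7 CPM in macrophages. The highest macrophage library of all, at 57.9 CPM, was far below the lowest monocyte library, at 312 CPM. Klf2 was 23.6-fold lower over the 4 pairs (log2 change -4.56 ± 0.20, edgeR adjusted p = 5.63e-23), a size that 4.8% of the genes tested exceeded. The change was -5.26 ± 0.40 in young and -4.30 ± 0.38 in old saline mice. With the outlying immediate early libraries left out it was -4.77. Klf4 (chr4:55527143-55532466) was 1.96-fold lower (-0.97 ± 0.11, edgeR adjusted p = 6.25e-10), with young saline values of 557, 574, 464, 506 and 192 CPM in monocytes and 258, 299, 202, 220 and 219 CPM in macrophages. Monocyte replicate 5 alone was below the macrophage libraries, and the other 4 were above them. In old saline mice its call (-0.61 ± 0.22, edgeR adjusted p = 0.0183) was lost without old saline monocyte replicate 5 (-0.46, adjusted p = 0.0897). Of 11 KLF genes tested, 9 were lower and 1 was higher, where 39.2% of all genes were lower and 39.9% higher. Klf3, a repressor of the same zinc-finger class, changed by -2.44 ± 0.09, Klf13 by -1.99 ± 0.05 and Klf11 by -1.62 ± 0.09, and Klf8 was higher at 0.45 ± 0.17.

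Maf (chr8:115682942-115707794) was lower in macrophages too. Its young saline libraries held 149, 126, 142, 138 and 72.5 CPM in monocytes and 32.3, 48.3, 25.2, 55.4 and 36.1 CPM in macrophages, with no overlap. The difference was 2.88-fold over the 4 pairs (log2 change -1.53 ± 0.10, edgeR adjusted p = 6.24e-17). Of 5 MAF genes tested 4 were lower, where 39.2% of all genes were. Among the 4 lower ones, the small MAF genes Mafk and Mafg changed by -0.97 ± 0.07 and -0.54 ± 0.06. Another small one, Maff, was higher at 1.6 ± 0.14.

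**Figure D2:**
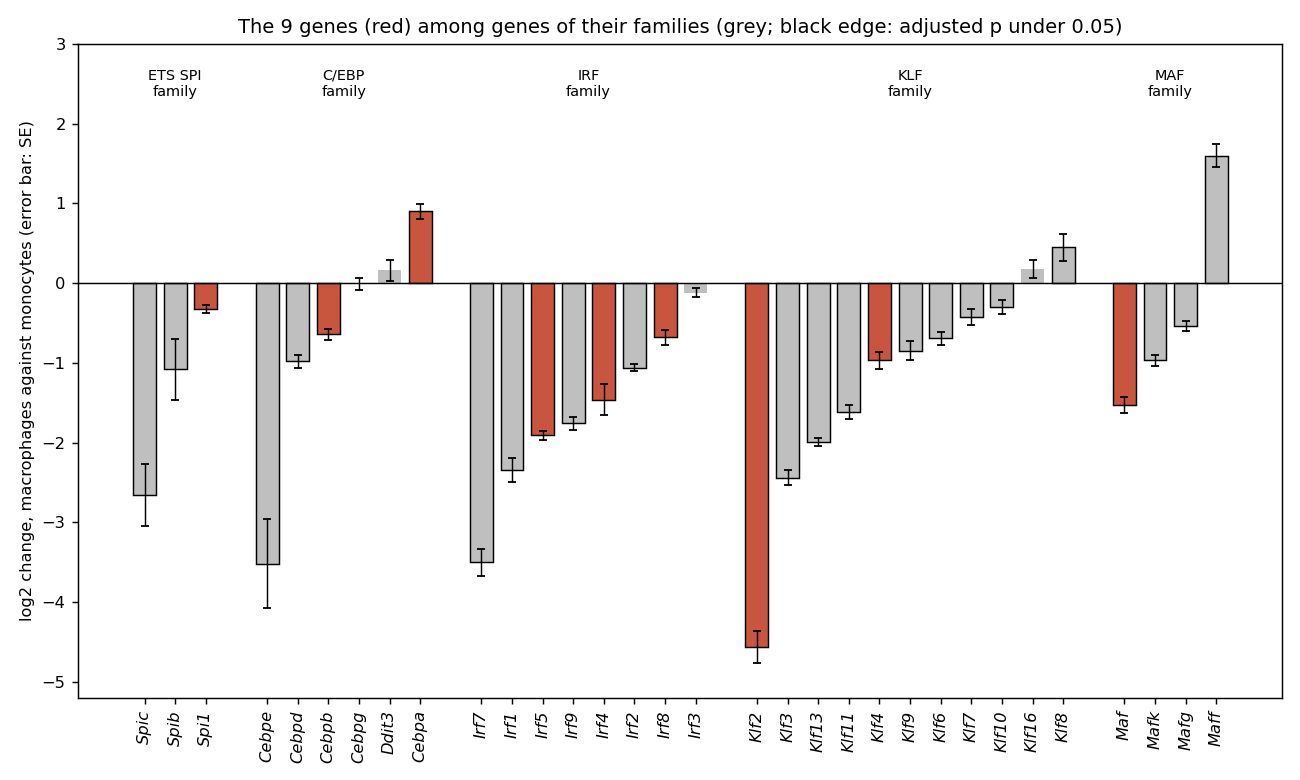
Change between macrophages and monocytes (log2, bars from 0, error bars SE) of genes of the 5 families, with the 9 genes in red and a black edge where the adjusted p was under 0.05. Cebpa, Maff and Klf8 are the genes with an edged bar above 0, and Klf2, Irf7 and Cebpe reach lowest.

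The genes known as targets of these factors did not all follow the factor. Target lists were short, overlapped and were put together from general knowledge. Their counts stand against the 39.9% of all genes that were higher and the 39.2% that were lower. Of 12 MAF target genes tested, 10 rose and 2 fell in macrophages, and their median log2 change was 3.10 against 0 for all genes, while Maf was lower. The complement genes C1qa, C1qc and C1qb changed by 8.40 ± 0.22, 7.68 ± 0.23 and 6.51 ± 0.22, Folr2, a folate receptor, by 6.12 ± 0.33, and Mrc1, the mannose receptor, by 5.41 ± 0.15. Of 9 IRF4 targets 7 rose and 1 fell (median 2.89), while Irf4 was lower. Arg1, the arginase of alternative activation, changed by 6.39 ± 0.45, the chemokine genes Ccl17 and Ccl22 by 5.28 ± 0.32 and 4.09 ± 0.40, and Cd209a, a lectin of monocyte-derived dendritic cells, by -4.07 ± 0.39. For the KLF factors, 8 of 11 targets were lower and 2 higher. Itgb7, an integrin chain, changed by -5.95 ± 0.15 and Nr4a1, the factor of nonclassical monocytes, by -5.10 ± 0.20. F3, tissue factor, which KLF2 is known to hold down, was higher by 4.95 ± 0.49. Nr4a1 is also listed among the immediate early genes and the nonclassical monocyte markers used here. The part of the KLF factors in these changes was not tested.

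Of 12 IRF8 targets, 9 were lower and 2 higher, among them Bcl6, a repressor, at -2.92 ± 0.08, Cx3cr1, the fractalkine receptor, at -2.09 ± 0.12, and Ctss, cathepsin S, at 2.21 ± 0.05. Of 5 IRF5 targets 4 were lower, including the cytokine genes Il6 at -3.29 ± 0.47 and Il1b at -2.18 ± 0.23, and Tnf was higher at 2.12 ± 0.19. PU.1 targets were split, with 6 higher and 5 lower of 14: Csf3r, the granulocyte growth factor receptor, changed by -3.50 ± 0.08 and Itgam, the integrin CD11b, by -2.62 ± 0.12, against 1.81 ± 0.15 for Tlr4, the endotoxin receptor. C/EBP targets were split as well, 6 higher and 6 lower of 12, with Ptgs2, cyclooxygenase-2, at -4.92 ± 0.33 and Fabp4, a lipid carrier, at 3.77 ± 0.23. Among 37 other myeloid factors tested, 15 were higher and 19 lower. Pparg, the driver of alveolar macrophage identity, changed by 3.92 ± 0.16, Egr2 by 4.01 ± 0.15, Runx3 by -3.98 ± 0.16 and Nr4a1 as given above. Bhlhe41, a transcriptional repressor that acts in alveolar macrophages, was at 0 to 1.23 CPM in monocytes and at 130 to 348 CPM in macrophages.

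**Figure D3:**
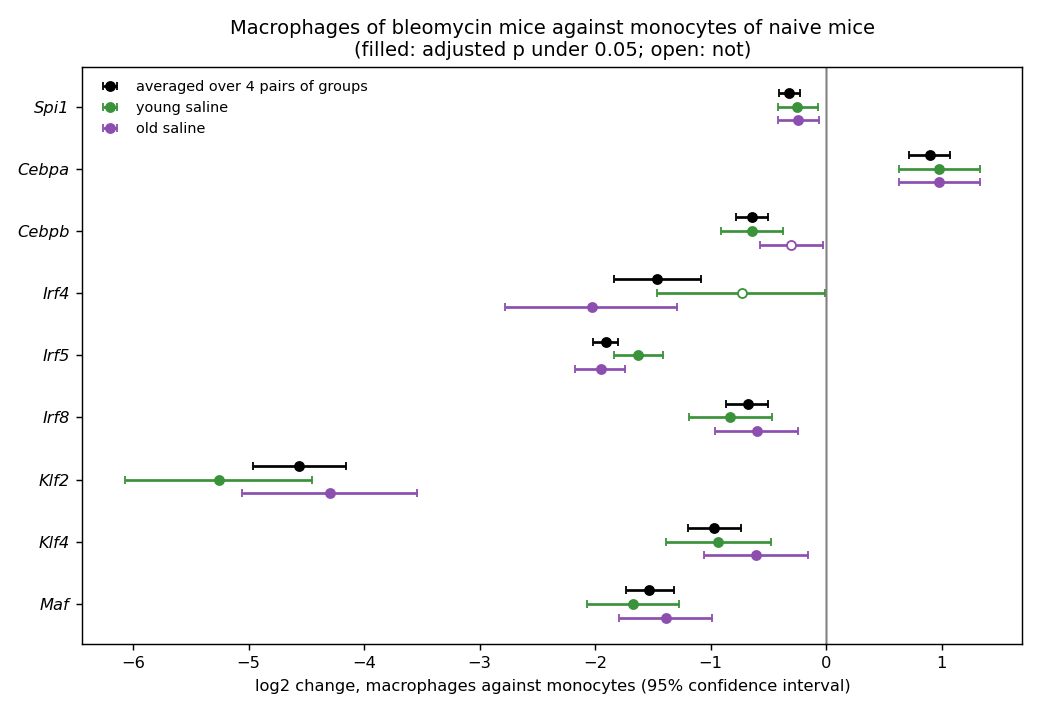
Change of each gene between macrophages of bleomycin mice and monocytes of naive mice (log2, horizontal bars are 95% confidence intervals), averaged over 4 pairs (black) and in young (green) and old (purple) saline mice; filled points passed the test. Klf2 lies between -5.26 and -4.30, Cebpa is the one gene to the right of 0, and the open points are Irf4 in young and Cebpb in old mice.

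In the order of the 8 group means, the 4 monocyte groups stood above the 4 macrophage groups for the 8 genes that were lower in macrophages, and the reverse held for Cebpa. Within a cell type, neighbouring groups overlapped in their libraries for all 9 genes, with a single exception. That exception was Irf5 in macrophages: young saline, at 187 ± 15.7 CPM (SD, n = 5), lay wholly above young ISRIB, at 146 ± 7.07 CPM (SD, n = 4), which was followed by old saline at 142 ± 22.4 CPM (SD, n = 5) and old ISRIB at 128 ± 19.6 CPM (SD, n = 5). Klf2 had the reverse order in macrophages, from 16.7 ± 2.39 CPM (SD, n = 5) in young saline through 28.5 ± 21.7 (SD, n = 4) in young ISRIB and 36.6 ± 15.7 (SD, n = 5) in old saline to 40 ± 10 (SD, n = 5) in old ISRIB. For Spi1, Cebpa, Irf8, Klf4 and Maf the macrophage group means differed by at most 1.19-fold from the lowest to the highest.

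With age, 1 of the 9 genes was called in macrophages. Irf5 was lower in old mice when saline and ISRIB mice were averaged (log2 change -0.30 ± 0.08, edgeR adjusted p = 0.0258), in a comparison that called 4.86% of 12171 genes, 3.12% higher and 1.74% lower. The young saline libraries held 183, 197, 165, 206 and 183 CPM and the old saline ones 148, 154, 136, 165 and 107 CPM, so the groups met at 165 CPM. The young ISRIB libraries held 139, 156, 147 and 144 CPM and the old ISRIB ones 153, 141, 107, 126 and 112 CPM, which overlapped. Each part of the average alone did not pass: -0.40 ± 0.11 in saline mice (edgeR adjusted p = 0.0641) and -0.19 ± 0.11 in ISRIB mice (edgeR adjusted p = 0.523). That call was lost without young saline replicate 4 (adjusted p = 0.053), young ISRIB replicate 2 (adjusted p = 0.0506), old ISRIB replicate 3 (adjusted p = 0.0511) or old ISRIB replicate 5 (adjusted p = 0.0557), with changes of -0.27 to -0.28, and without the 4 macrophage libraries of an outlying immediate early sum it was -0.21 (adjusted p = 0.242). Tnpo3, which shares bases with Irf5, changed by -0.05 ± 0.06 (edgeR adjusted p = 0.742).

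Klf2 did not pass the test with age in macrophages. Its log2 change was 0.81 ± 0.24 (95% confidence interval 0.31 to 1.32, edgeR adjusted p = 0.054) averaged over treatment, 1.15 ± 0.34 in saline mice (edgeR adjusted p = 0.101) and 0.48 ± 0.35 in ISRIB mice (edgeR adjusted p = 0.644). With 1 library left out, the averaged change passed in 4 of 19 fits. It was 1.11 without young ISRIB replicate 2 (edgeR adjusted p = 0.00328). Without old saline replicate 2 or 4 or old ISRIB replicate 4 it was 0.87 to 0.89 (edgeR adjusted p = 0.0317 to 0.0433). In saline mice alone it passed in 1 of 10, without old saline replicate 2 (1.28, edgeR adjusted p = 0.0483). All 5 old saline libraries, at 20.6 to 55.6 CPM, were above the 5 young saline ones, at 14.7 to 20.3 CPM. The margin was small, and 2.85% of all genes had no overlap in this comparison. In CPM without the TMM scaling the groups overlapped, with 19 CPM in old and 20 CPM in young saline replicate 4. The young ISRIB libraries, at 29.7, 57.9, 6.96 and 19.3 CPM, were spread over the whole macrophage range. The immediate early genes of the same libraries were uneven, at 3254 to 4767 CPM in young saline, 2901 to 8081 in young ISRIB, 4316 to 8090 in old saline and 4395 to 6032 in old ISRIB macrophages, and 0 of the 17 were called with age (edgeR). The highest Klf2 levels in young ISRIB and old saline macrophages were in the libraries with the highest sums. The 4 macrophage libraries of an outlying sum, high or low, were young ISRIB replicates 2 and 3 and old saline replicates 3 and 5. Without these 4 the averaged change was 0.67 (edgeR adjusted p = 0.0301) and that in saline mice was 0.64 (edgeR adjusted p = 0.215). Markers of B cells, which also express Klf2, summed to 0.988 to 7.29 CPM in young saline, 2.14 to 13 in young ISRIB, 11.5 to 39.3 in old saline and 24.7 to 53.1 CPM in old ISRIB macrophages, and 12 T and NK cell markers to 5.04 to 8.6, 6.22 to 12.6, 10.7 to 33 and 19.4 to 48.2 CPM. All 10 B cell genes had counts in macrophages. With age, averaged over treatment, 5 of 10 B cell markers and 5 of 9 tested T and NK cell markers rose, where 3.12% of all genes did. Their part in the Klf2 level was not tested.

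**Figure D4:**
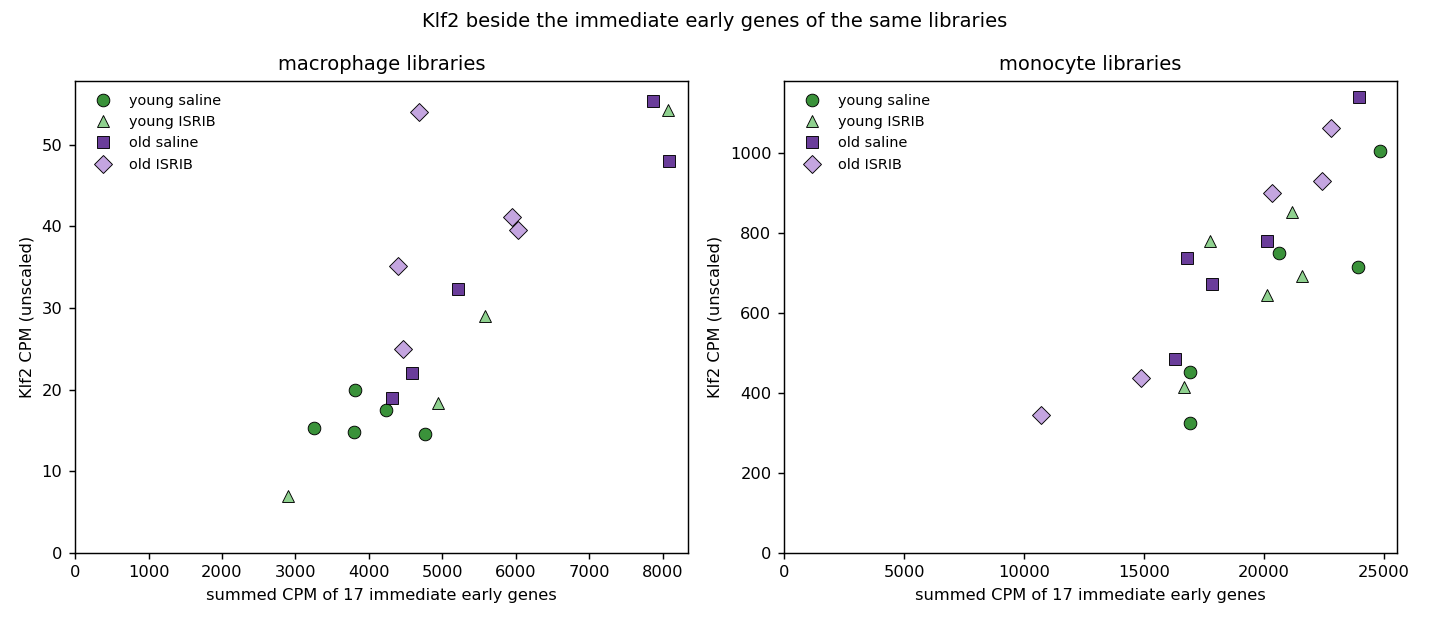
Klf2 in each library (unscaled CPM) against the summed CPM of 17 immediate early genes, macrophages on the left and monocytes on the right, with symbols for the 4 age and treatment groups. In macrophages the libraries with sums of 7873 to 8090 CPM have Klf2 at 48 to 55.4 CPM, and old ISRIB replicate 3 reaches 54.0 CPM at a middling sum.

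The other 7 genes did not pass with age in macrophages. In saline mice 0 of 9 were called by edgeR, where 1.16% of all genes were, and 3 had an unadjusted p under 0.05 (12.7% of all genes); limma voom also called 0 and DESeq2 called 1, Irf5. Irf4 had a log2 change of -0.58 ± 0.22 (edgeR adjusted p = 0.222), with 15.9 to 28.5 CPM in young and 9.42 to 19.1 CPM in old saline macrophages. Irf8 had 0.17 ± 0.09 in saline and 0.17 ± 0.10 in ISRIB mice, and 0.17 ± 0.07 (edgeR adjusted p = 0.152) averaged. Spi1 was held within -0.09 to 0.12 (95% confidence interval, averaged over treatment) and Cebpa within -0.25 to 0.09. In ISRIB mice 0 of 9 were called by edgeR (0.937% of all genes), and 0 had an unadjusted p under 0.05 (12.2% of all genes); DESeq2 and limma voom called 0 too. None of the 9 was without overlap there, where 4.87% of all genes were. The age comparisons under saline and the ISRIB comparisons in young mice share the young saline macrophages, the highest group for Irf5 and the lowest for Klf2.

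Among the known targets, of 9 KLF targets tested 4 rose and 1 fell with age in macrophages, averaged over treatment. The counts of this paragraph stand against 3.12% of all genes higher and 1.74% lower. Among the genes that rose were Itgb7 at 0.98 ± 0.26, Thbd, thrombomodulin, at 0.61 ± 0.16, and Cdkn1a, a cell cycle inhibitor, at 0.55 ± 0.13. Itgb7 is also carried by lymphocytes, whose markers are given above, and their part here was not tested. Of 12 IRF8 targets 2 were lower, Cx3cr1 at -0.87 ± 0.14 and Bcl6 at -0.38 ± 0.11. Of 11 MAF targets 3 were lower, C1qa, C1qb and C1qc at -0.52 ± 0.13, -0.51 ± 0.13 and -0.48 ± 0.12, and Cd36, a scavenger receptor, was higher at 0.67 ± 0.15. Of 11 C/EBP targets 3 were higher, Lyz1, Fabp4 and Lyz2, at 0.91 ± 0.22, 0.67 ± 0.14 and 0.32 ± 0.09. Of 5 IRF5 targets 1 was higher, Ccl5, a chemokine also made by T and NK cells, at 2.15 ± 0.43. In the families, Maff rose by 0.72 ± 0.14, and no other SPI, C/EBP, IRF, KLF or MAF gene than Maff and Irf5 was called (edgeR, averaged over treatment).

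None of the 9 was called with ISRIB in macrophages. By edgeR 0 of 9 were called in old mice (0% of all genes), 0 of 9 in young mice (0% of all genes) and 0 of 9 averaged over age (0.830% of all genes), and DESeq2 and limma voom called none of them either. An unadjusted p under 0.05 was found for 1 of 9 in old mice (9.14% of all genes), 3 of 9 in young mice (12.4%) and 3 of 9 averaged over age (16.6%). The lowest adjusted p belonged to Irf5, with -0.25 ± 0.08 averaged over age (95% confidence interval -0.41 to -0.09, edgeR adjusted p = 0.1). In young mice it was lower in all 4 ISRIB libraries than in all 5 saline libraries, by -0.35 ± 0.11 (edgeR adjusted p = 0.192), and the same was true of Spi1, with 388 to 407 against 419 to 460 CPM (-0.16 ± 0.08, edgeR adjusted p = 0.405). That made 2 of 9 without overlap, where 3.98% of all genes had none. Cebpb had a log2 change of -0.34 ± 0.11 in old macrophages (edgeR adjusted p = 0.348), with 550 to 926 CPM under saline and 469 to 635 CPM under ISRIB. Klf2 had 0.79 ± 0.36 in young mice (edgeR adjusted p = 0.357). This was 0.19 without young ISRIB replicate 2 and 1.11 (adjusted p = 0.047) without young ISRIB replicate 3, and the average over age was 0.46 with all libraries and 0.15 without replicate 2. With the outlying immediate early libraries left out, Irf5 (-0.34, edgeR adjusted p = 0.00851) and Klf2 (0.60, edgeR adjusted p = 0.0163) passed. Those left out were young ISRIB replicates 2 and 3 and old saline replicates 3 and 5. Replicates 2 and 3 held the highest and the lowest Klf2 of young ISRIB macrophages, 57.9 and 6.96 CPM. Under the replicate block Irf5 passed (-0.27, edgeR adjusted p = 0.0347). The difference of the ISRIB effect between old and young macrophages was called for 0 of 9 (0% of all genes; 2 with an unadjusted p under 0.05, against 5.10% of all genes, Klf4 at -0.44 ± 0.17 and Irf4 at 0.66 ± 0.32).

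Beside the 9, Irf1 was lower with ISRIB in macrophages, averaged over age (-0.53 ± 0.11, edgeR adjusted p = 0.0324), the one called gene of 8 IRF genes. The counts of this paragraph stand against 0.452% of all genes higher and 0.378% lower in this comparison. Of 12 IRF8 targets 3 were lower: Irf1 itself, Ciita, the master switch of MHC class II, at -0.73 ± 0.15, and Cd74, the invariant chain, at -0.70 ± 0.12. Of 11 MAF targets 2 were higher, Cd36 at 0.76 ± 0.15 and Mrc1 at 0.35 ± 0.08. Ciita and Cd74 are also genes of B cells. Summed B cell markers had medians of 3.99 CPM under saline and 10.8 under ISRIB in young, and 17.9 and 42.5 in old macrophages. Summed dendritic cell markers had medians of 94.3 CPM under saline and 71.6 under ISRIB in young, and 109 and 91.6 in old macrophages. Their ranges did not overlap in young mice (81.2 to 117 and 64.4 to 79.9 CPM) and did in old mice. The part of B cells or dendritic cells in these changes was not tested.

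**Figure D5:**
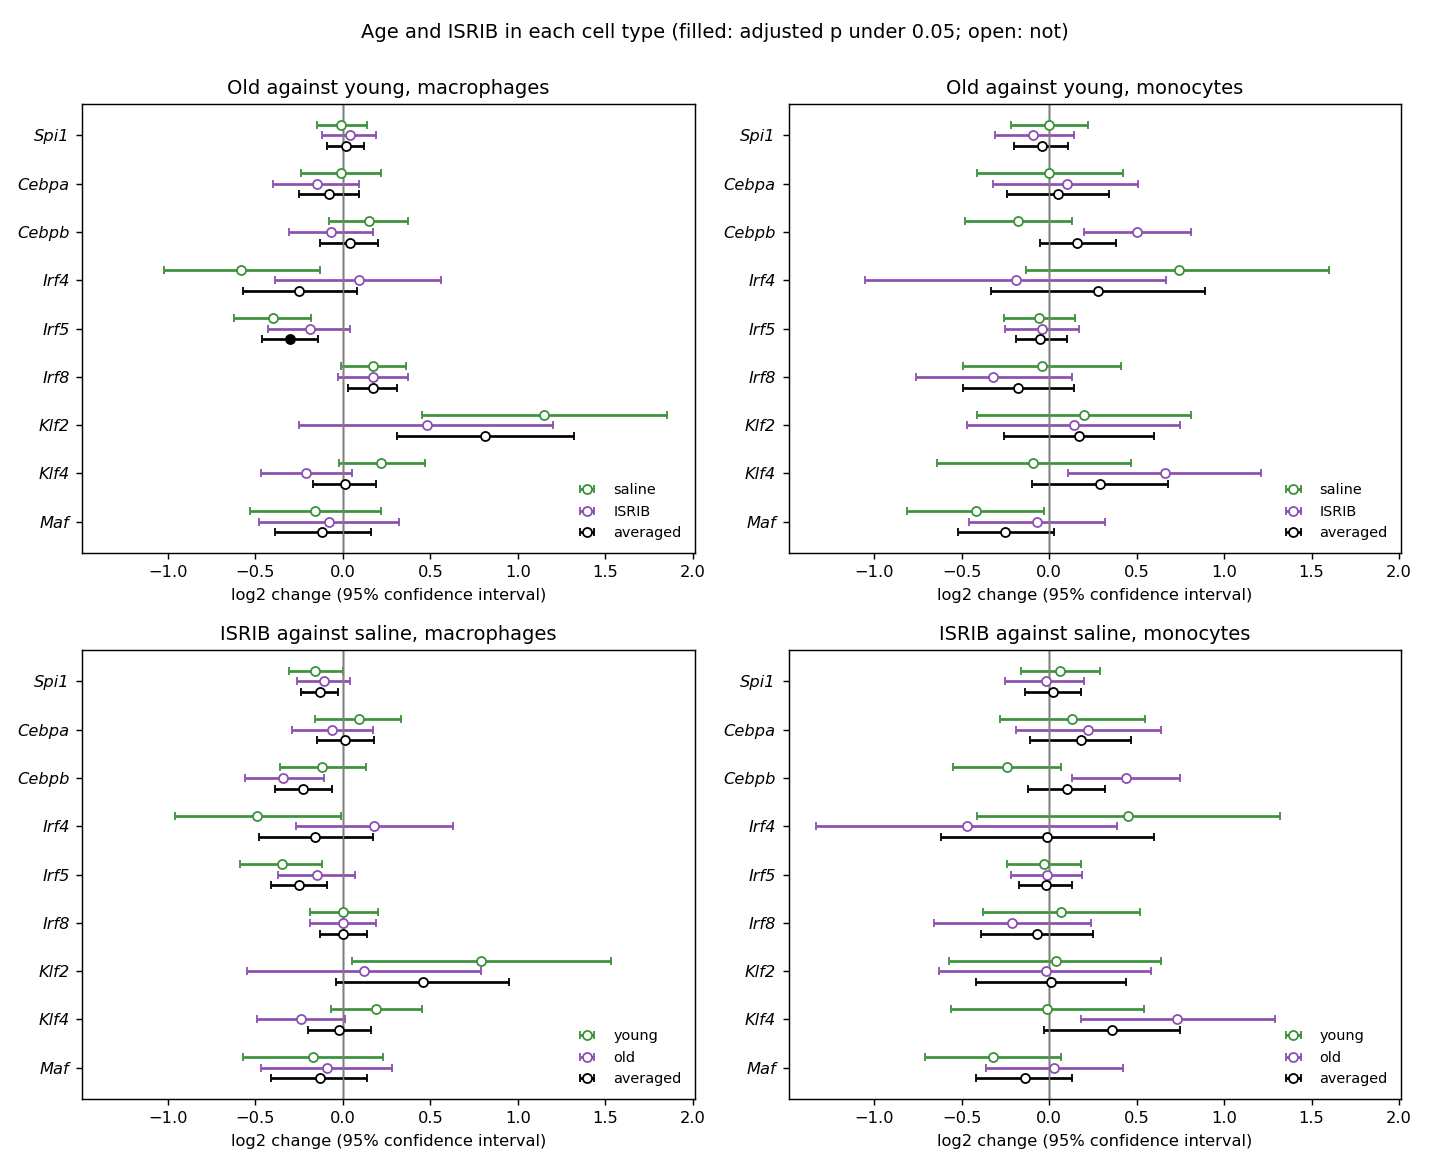
Log2 change with age (top) and with ISRIB (bottom) in macrophages (left) and monocytes (right), with 95% confidence intervals; filled points passed the test. The filled point is Irf5 with age in macrophages, -0.30, and the widest intervals are those of Irf4 in monocytes.

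In monocytes none of the 9 was called with age or with ISRIB. With age 0 of 9 passed by edgeR in saline mice (0.0247% of all genes), 0 of 9 in ISRIB mice (0%) and 0 of 9 averaged (0.123%). An unadjusted p under 0.05 was found there for 1 of 9, Maf (8.81% of all genes), 2 of 9 (6.60%) and 0 of 9 (8.24%). With ISRIB 0 of 9 passed by edgeR in old mice, 0 in young mice and 0 averaged (0% of all genes in each), and an unadjusted p under 0.05 was found for 2 of 9 (7.54% of all genes), 0 of 9 (6.65%) and 0 of 9 (7.49%). DESeq2 and limma voom called none of the 9 in these 6 comparisons. The old ISRIB group, which holds the library of the low immediate early sum (replicate 5), stood out in value. Its Cebpb libraries held 1081, 956, 1256, 1094 and 1282 CPM, against 718, 754, 654, 938 and 1067 CPM in old saline and 825, 635, 823, 814 and 894 CPM in young ISRIB monocytes. Every old ISRIB library was above every young ISRIB one, and 1.60% of all genes had no overlap between these groups in one direction or the other. In contrast, 1 old saline library, at 1067 CPM, lay within the old ISRIB range. No other of the 9 genes was without overlap between the ages or treatments in monocytes, where 1.44% of all genes were with age under saline, 1.50% with ISRIB in old and 0.887% with ISRIB in young mice. The log2 change was 0.44 ± 0.15 against old saline (edgeR adjusted p = 0.487) and 0.50 ± 0.15 against young ISRIB (edgeR adjusted p = 0.381), and the difference of the ISRIB effect between the ages was 0.68 ± 0.21 (edgeR adjusted p = 0.5). Klf4 in the same group was at 450, 544, 913, 856 and 833 CPM, with 3 libraries above any of the other 15 monocyte libraries. Its change was 0.73 ± 0.27 against old saline (edgeR adjusted p = 0.534). The 3 libraries high in Klf4 included replicates 4 and 5, which were the lowest of the group for Klf2, at 434 and 362 CPM, and for Irf8. Maf was lower in old saline monocytes by -0.42 ± 0.19 (edgeR adjusted p = 0.517).

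The age effect was not shown to differ between the cell types for any of the 9: 0 were called (0.743% of all genes; 1 with an unadjusted p under 0.05, against 11.5% of all genes), and the lowest adjusted p was 0.35 (edgeR), for Irf5, with a difference of -0.24 ± 0.11. In monocytes the log2 change of Irf5 with age was -0.05 ± 0.07, with a 95% confidence interval of -0.19 to 0.10.

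The genes most like each of the 9 were sought over the 39 libraries, after the mean of each cell type was taken out, among the 9649 others whose mean level reached 5 CPM. These are correlations over libraries that share groups and handling, given as a description, and they could differ between the cell types. Klf2 was most like Rhob (Pearson r = 0.85), a small GTPase gene, and Ppp1r15a (r = 0.84), which encodes GADD34, the phosphatase subunit that ends the integrated stress response. Irf5 was most like Pld4, an endolysosomal exonuclease, and Cx3cr1, both with r = 0.77. Cebpb was most like Zc3h12a (r = 0.75), the RNase regnase-1, and Plaur (r = 0.73), the urokinase receptor. Klf4 was most like a gene whose identifier has no symbol in the annotation used (r = 0.82; 0.9 in monocytes and 0.33 in macrophages) and Cd83 (r = 0.81), an activation marker. Irf4 was closest to Klf10 (r = 0.75; 0.83 in monocytes and 0.42 in macrophages) and Pdgfb (r = 0.73; 0.82 and 0.2). Irf8 was closest to Plekhm1 (r = 0.76) and Chic2 (r = 0.74), and Spi1 to Snrpb (r = 0.72) and Gpsm3 (r = 0.70). The closest genes of Cebpa, Msl1 (r = 0.65) and Klhl18 (r = 0.62), and of Maf, Cd300lb (r = 0.62) and Trf (r = 0.57; 0.72 in monocytes and 0.26 in macrophages), were less alike.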

How the data were processed

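RNA sequencing counts of 39 libraries were analysed. Per the submitters' processing notes the tools were bcl2fastq 2.19.1, FastQC, Trimmomatic 0.36, STAR 2.6.0 and HTSeq 0.11.2 with build mm10; the sources used here do not give the annotation release or the strand setting. Per the labels' protocols, libraries were made from 3 ng RNA with polyA selection. The deposited values are raw counts per Ensembl gene, 1 column per library. Of 43430 rows, 42462 matched a symbol in GENCODE vM21 (GRCm38); the rest held at most 0.1598% of a library's counts. Gene positions and lengths are from that annotation.

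Genes were tested with edgeR 4.0.16 (R 4.3.3; TMM, filterByExpr with minimum count 10 and total 15, quasi-likelihood F test, Benjamini-Hochberg adjustment), separately in 19 macrophage libraries (12171 genes) and 20 monocyte libraries (12170), and over all 39 (13587) between cell types, with 1 mean per group. The biological coefficient of variation was 0.206, 0.258 and 0.246. Sums of marker lists use unscaled CPM. Intervals are 95%. Alternatives were DESeq2 1.42.0, limma voom 3.58.1, other size factors, no filter, a replicate block, 1 fit of all libraries and each library left out; 2 alternatives were added after seeing the data, which leave out libraries whose immediate early sum, or nonclassical monocyte sum, was more than a set factor away from the median of their cell type. The fit of the macrophage libraries was also run on simulated counts with changes by age. Those changes were larger than the one called for Irf5, so that run does not test changes of its size. No 2 libraries of a group were duplicates (chi-square per degree of freedom 7.26 to 57.7 over 76 pairs).

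The 9 genes and all lists were chosen with earlier results of these data known. All 9 are described in every comparison; of other lists up to 5 called genes per comparison were open to naming, those with the largest change, and the 2 most alike genes per member. Klf8 and Irf3, the exceptions in their families, were named after their values were seen. Of 275 listed symbols 275 were matched. Values of some listed genes are not reported here; they remain in the counts.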

Additional observations from a re-analysis of the deposited data

Results flagged for a closer look

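In 4 of 72 checks of a gene within a group, 1 library lay far from the others by Dixon's gap test, which flags about 1 group in 20 by chance. Cebpb was at 1297 CPM in young saline monocyte replicate 4, the shallowest library, against 891 CPM in the nearest. Cebpb was at 926 CPM in old saline macrophage replicate 3, against 641 CPM in the nearest. Irf5 was at 610 CPM in old saline monocyte replicate 5, against 551 CPM in the nearest. Klf4 was at 192 CPM in young saline monocyte replicate 5, against 464 CPM in the nearest.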

How the results depend on the processing

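The 9 genes were called between cell types, averaged over 4 pairs, under every alternative run, and no called change reversed. There were 125 pairs of a gene and a comparison called neither in the main fit nor under any alternative. Over these, 188 of 2864 settings gave the opposite sign. In macrophages, with no filter on low counts, 1 member was called with ISRIB in old mice (Cebpb; 220 genes in all), 1 in young mice (Klf2; 224) and 2 averaged over age (Cebpb and Irf5; 640), and 2 with age in saline mice (468) and 2 averaged (Irf5 and Klf2; 975); Spi1 lost its call between cell types in young and in old saline mice. With age in saline mice DESeq2 called 1 (Irf5), and limma voom called 2 averaged over treatment (Irf5 and Klf2). With the outlying immediate early libraries left out, 2 genes were called with ISRIB averaged over age. The causes were not tested. Leaving out each library gave 0 to 1 with ISRIB in young macrophages, 0 to 1 averaged over age, 0 to 2 with age in saline macrophages, 0 to 3 averaged over treatment, and 7 to 9 between cell types in young and in old saline mice.

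Over all genes, deviations of same-numbered libraries correlated at -0.12 to 0.12 in macrophages and -0.16 to 0.22 in monocytes. Those of libraries with unlike numbers correlated at -0.17 to 0.17 and -0.21 to 0.2, so no pairing was seen at this scale. A pairing that acts on few genes could not be seen in this way. With the replicate block 1 gene was called with ISRIB averaged over age and 1 with age in saline macrophages, both Irf5, and Cebpb was called between cell types in old saline mice; no other member's call changed. Over all genes, counts of calls moved by over 1.5 times: for ISRIB averaged over age in macrophages from 101 to 440 (DESeq2), 343 (replicate block), 17 (1 fit of all libraries) and 1255 (outlying libraries left out), and for age averaged over treatment from 592 to 975 (no filter), 340 and 199 (the last 2 settings named). Standard errors of age and ISRIB within a single group pair were 0.22 to 0.42 for Irf4 and 0.29 to 0.36 for Klf2, against 0.07 to 0.11 for Spi1, which sets what was detectable.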
